A study of Mus musculus with 12 samples.

Results

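The cytosolic ribosome of mammals is built from ribosomal RNA and a fixed set of proteins, and the genes of these proteins were followed here in mouse mammary tumours and mammary epithelium. A gene was taken when its symbol began with Rpl or Rps and a number, or was Rplp0, Rplp1, Rplp2 or Rpsa, without pseudogenes named with -ps and without the Rps6k kinases, and when it held at least 100 counts over the 12 libraries. Of 54658 genes in the counts, 91 met this rule. They comprised 77 canonical subunit genes, 46 of the large and 31 of the small subunit, and 14 others that were paralogs, retrocopies or genes that only share the name. Rpl10l with 1 count and Rpl3l with 51 counts fell below the minimum, and Rpl39l with 161 and Rps12l1 with 168 counts lay just above it.

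Ribosomal protein mRNAs are among the most abundant of a growing cell. Many of them begin with a run of pyrimidines, the terminal oligopyrimidine (TOP) motif, through which mTOR signalling controls their translation rather than their amount. Several ribosomal proteins have a further role when ribosome assembly is disturbed: the 5S ribonucleoprotein particle, with Rpl5 and Rpl11, binds Mdm2, the ubiquitin ligase that degrades p53.

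Total RNA was sequenced from 9 mammary tumours with the genotype Trp53R245W/+, driven by a somatic missense change of p53, and from 3 preparations of enriched mammary epithelium labelled wild-type, taken from glands of the same cohort. Every sample came from a female C57BL/6J X BALB/cJ F1 hybrid. The tumours carry the numbers 1, 4, 5, 14, 17, 20, 21, 24 and 27 and the epithelium libraries 1, 2 and 3, and the labels do not say whether each came from a different mouse, so p-values measure the spread between these samples. Genotype and the prefix of the library titles both followed the group, so p53 status, tumour state and a batch cannot be told apart, and in bulk tissue fewer cells of a type and less RNA per cell cannot be told apart either.

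Levels are counts per 1000000 (CPM) scaled by the trimmed mean of M values (TMM), and log2 fold changes, tumour over epithelium, come from edgeR's quasi-likelihood test, with the standard error (SE) and a p adjusted over all 21456 genes tested. Gene counts ran from 19695318 to 33600076 per tumour library and from 24247566 to 25543872 per epithelium library. Tumour 4 stood apart from the other libraries. The small nuclear RNA gene Rn7sk took 22.6% of its gene counts and mitochondrial genes 11.2%, 52.0% of its alignments were not unique, and its scaling factor was 0.557, against 0.896 to 1.10 in the other tumours and 1.16 to 1.19 in epithelium. Several results that rest on it are given with and without it, and those of some single genes only with it. Alignments that the counting tool assigned to no feature were 8.08% to 32.3% in tumours and 39.9% to 41.5% in epithelium. These need not lie outside genes, because the strand setting of the count is not stated. Marker genes of lymphocytes were lower in tumours, with 8 of 8 T and NK cell markers (summed 2.89 to 34.1 CPM in tumours, 420 to 487 CPM in epithelium; Cd3e was at 0 in a tumour) and 6 of 6 B cell markers (1.80 to 60.2 and 595 to 842 CPM). Of 8 luminal markers edgeR called 3 higher (1224 to 7378 CPM in tumours, 1894 to 2991 CPM in epithelium), while DESeq2 and limma-voom each called 4 higher and 1 lower, and none of 6 basal markers was called by edgeR (133 to 3765 and 1076 to 1537 CPM; DESeq2 called 2 lower, limma-voom 3 lower, and 0 had an unadjusted p under 0.05 in edgeR). Of 6 macrophage markers 2 were higher in edgeR (455 to 3022 and 653 to 946 CPM), of 6 endothelial markers 3 were lower (177 to 709 and 822 to 1047 CPM), and of 6 adipocyte markers 1 was lower (12.5 to 122 and 322 to 496 CPM; Adipoq and Lep were at 0 in a tumour). Of 7 fibroblast markers edgeR called 0, with 2 at an unadjusted p under 0.05, and DESeq2 and limma-voom called 3 lower each. Their sum was 1341, 2807 and 31819 CPM at the lowest, median and highest tumour, the highest being tumour 21, and 3794 to 5781 CPM in epithelium. The part of these cell types in the results below was not tested.

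The starts of some of these genes are shown because the pyrimidine run is what ribosomal protein mRNAs are known for, and because the results turn on several of the genes. Each line holds 15 bases before and 15 bases from the annotated start of a RefSeq promoter window (GRCm38.p6), 5′ to 3′ on the strand of the gene, and capitals mark the longest run of pyrimidines.
Rps6, chr4:86857353-86857382, minus strand: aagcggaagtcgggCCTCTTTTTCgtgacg
Rpl28, chr7:4792950-4792979, plus strand: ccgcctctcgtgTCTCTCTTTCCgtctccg
Rps27, chr3:90213634-90213663, minus strand: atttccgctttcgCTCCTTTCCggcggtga
Rplp2, chr7:141447636-141447665, plus strand: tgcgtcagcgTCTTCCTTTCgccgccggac
Rps27l, chr9:66946071-66946100, plus strand: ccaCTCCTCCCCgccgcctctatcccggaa
Rpl22, chr4:152325711-152325740, plus strand: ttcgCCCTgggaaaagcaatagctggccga
Rpl22l1, chr3:28805493-28805522, plus strand: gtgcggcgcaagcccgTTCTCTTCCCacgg
Rpl13a, chr7:45128731-45128760, minus strand: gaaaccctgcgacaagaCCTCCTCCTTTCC
Rpl11, chr4:136053379-136053408, minus strand: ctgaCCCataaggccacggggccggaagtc
Rpsa, chr9:120127751-120127780, plus strand: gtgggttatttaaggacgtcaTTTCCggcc
Rps19bp1, chr15:80264292-80264321, minus strand: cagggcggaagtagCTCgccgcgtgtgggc

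In Rps6, Rpl28, Rps27 and Rplp2 the run crosses the annotated start, whereas in Rpl22l1 and Rpl13a it begins 1 and 2 bases after it, in Rps27l it ends before the start, and Rpl11, Rpsa, Rpl22 and Rps19bp1 have runs of 5 bases or fewer. Windows were found for 66 of the 91 genes. A C at the annotated start followed by at least 4 pyrimidines stood in 15 of 77 windows of these genes (19.5%), against 2.51% of all 32851 windows. A run of at least 7 pyrimidines within 15 bases of the start, a looser motif chosen after the data were seen, stood in 46.8% of these windows and in 18.6% of all. Both motifs were read on the gene's own strand, and a window that meets the first can also meet the second. The 14 genes with such a start had a median log2 fold change of 0.20 and the 52 without had 0.35. An absent run says only that these letters are not at the annotated start.

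As a class, ribosomal protein genes took a similar mean share of gene counts in epithelium and in the tumours with tumour 4 included. The tumours spread widely around their mean. The 91 genes held 2.88%, 6.47%, 2.78%, 3.90%, 2.61%, 5.25%, 2.17%, 3.85% and 3.34% of gene counts in tumours 1, 4, 5, 14, 17, 20, 21, 24 and 27, against 3.68%, 3.74% and 3.75% in epithelium. The means were 3.69% ± 1.38 in tumours (SD, n = 9) and 3.72% ± 0.04 in epithelium (SD, n = 3). The median was 3.34% in tumours and 3.74% in epithelium, and the tumour mean was raised by tumour 4, the highest library. Tumours 4, 14, 20 and 24 lay above all 3 epithelium libraries and the other tumours below all of them.

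**Figure D1:**
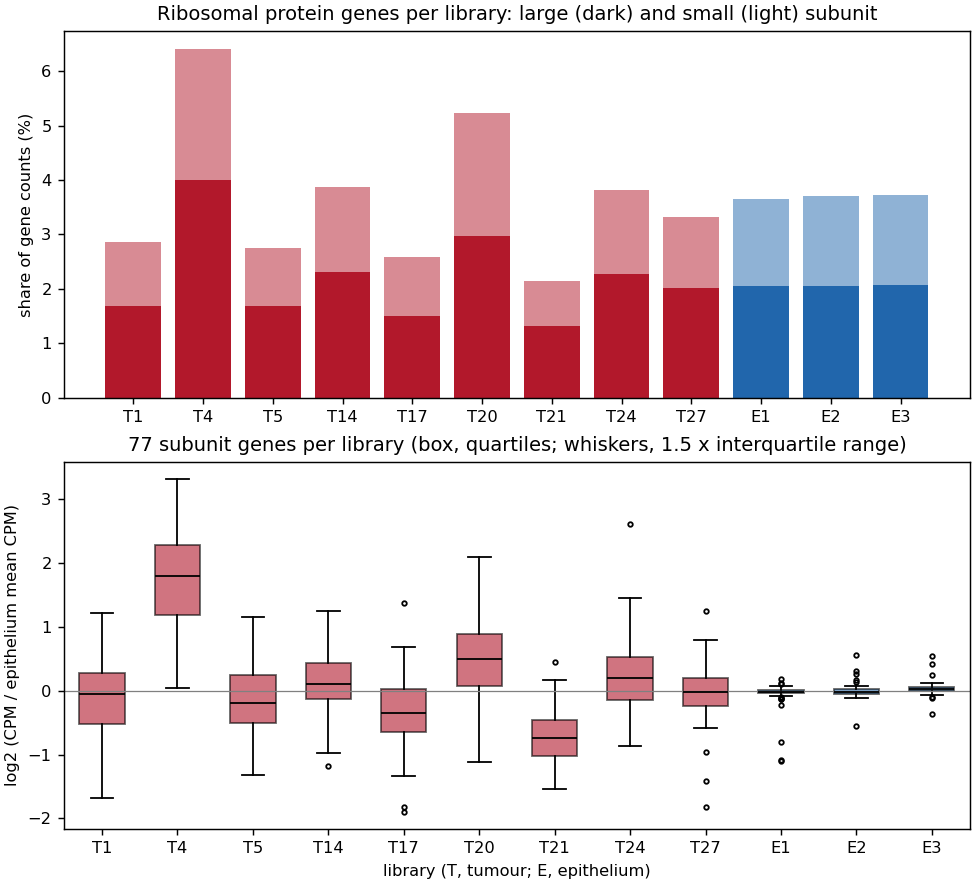
Top, share of gene counts (%) held by the 77 canonical genes in each library, with the large subunit in the dark and the small subunit in the light part of the bar, and tumours (T, red) left of epithelium (E, blue). Bottom, log2 ratio of each canonical gene's CPM to its epithelium mean per library, with medians from -0.73 in tumour 21 to 1.80 in tumour 4, and epithelium boxes close to 0.

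The genes shared part of their shift within a tumour, and most tumours held genes both above and below epithelium. Relative to the epithelium mean of each gene, the median log2 ratio of the 77 canonical genes was -0.05, 1.80, -0.19, 0.10, -0.35, 0.50, -0.73, 0.21 and -0.02 in tumours 1, 4, 5, 14, 17, 20, 21, 24 and 27, and between -0.02 and 0.03 in the epithelium libraries. Tumour 4 was the highest tumour for 70 of the 77 genes, and tumour 21, the tumour with the highest sum of fibroblast markers, the lowest for 57; the part of these markers was not tested. In tumour 4, 76 genes exceeded all epithelium libraries and 0 lay below them, and in tumour 21 these numbers were 4 and 68. They were 28 and 38 in tumour 1, 26 and 45 in tumour 5, and 42 and 24 in tumour 14. In tumours 17 and 20 they were 15 and 52, and 58 and 10. In tumours 24 and 27 they were 46 and 23, and 26 and 30. Without TMM scaling the median of tumour 4 was 0.72, and that of tumour 21 was -0.83. A shift common to all 77 genes accounted for 75.6% of their log2 spread over the 9 tumours and for 54.6% over the 8 tumours without tumour 4. No such value is given here for other genes.

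Among the 3 epithelium libraries the canonical genes were steady, with a median coefficient of variation of 3.35%, against 6.84% for 460 other genes of like mean CPM. Among the tumours it was 73.9%, or 30.7% without tumour 4, against 41.6% and 37.5% for the genes of like mean CPM. The tumours thus varied more than the epithelium in ribosomal protein genes, and the comparison with other abundant genes turned on tumour 4.

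No canonical subunit gene was called different between tumours and epithelium by edgeR. Of all genes tested 20.3% were called (8.89% higher and 11.4% lower in tumours), while of the 91 ribosomal protein genes 1 was higher and 1 lower (2.2%), and neither encodes a ribosomal subunit. Other genes of like abundance, 461 in number with 235 to 870 CPM, were called in 22.1%, and 107 protein-coding genes of like abundance and length in 25.2%. Of the 77 canonical genes, 2 had an unadjusted p under 0.05 in edgeR, DESeq2 called 2 higher and 1 lower, and limma-voom with quality weights called 11 higher and 5 lower. The shares of all genes called by DESeq2 and limma-voom are not given here. Their counts in any gene list therefore have no background, and the comparison with other genes holds for edgeR alone. Without tumour 4, edgeR called 2.6% of the canonical genes and 24.1% of all genes (32.3% of those of like abundance), with 1 canonical gene higher, Rpl36 (log2 fold change 0.74, adjusted p = 0.0474), and 1 lower, Rps7 (-0.89, adjusted p = 0.0101). The median SE of the canonical genes was 0.50 with tumour 4 and 0.29 without it.

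The median log2 fold change was 0.37 over the canonical genes, against 0.17 over all genes tested, 0.52 over the genes of like abundance and 0.89 over those of like abundance and length. Without tumour 4 the canonical median was -0.02, that of all genes 0.16 and those of the 2 comparison sets 0.51 and 0.73. The direction of the class also depends on scaling: over all 91 genes the median was 0.35 with TMM and -0.11 with library totals only, where that of all genes was -0.12. Across the 77 genes, log2 fold change and transcript length had a Spearman correlation of 0.03, a description over genes that share libraries.

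**Figure D2:**
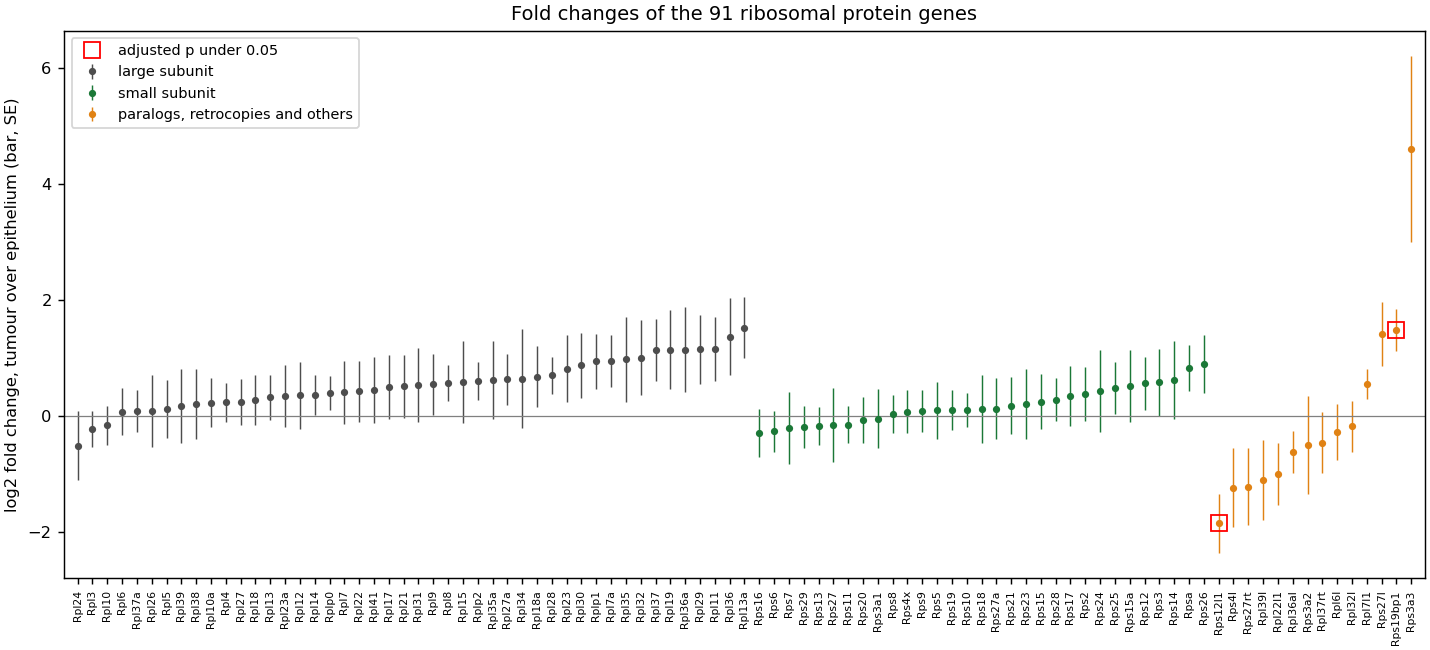
Log2 fold change (vertical axis, tumour over epithelium; bars, SE) of the 91 genes in 3 classes, each sorted by value, with red squares at an adjusted p under 0.05. The squares mark Rps19bp1 (1.48) and Rps12l1 (-1.84), and no large or small subunit gene has one.

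Large subunit genes stood above small subunit genes in every tumour. The median log2 ratio to epithelium of the large subunit genes exceeded that of the small by 0.39, 0.59, 0.28, 0.21, 0.30, 0.30, 0.28, 0.32 and 0.24 in tumours 1, 4, 5, 14, 17, 20, 21, 24 and 27, and by 0.00, -0.02 and 0.01 in epithelium libraries 1, 2 and 3. Counts of the large over the small subunit stood at 1.32 to 1.67 in tumours and 1.25 to 1.27 in epithelium. These ratios within a library do not depend on its scaling. The fits gave 43 of 46 large and 22 of 31 small subunit genes a positive log2 fold change, with medians of 0.53 and 0.12, or 0.10 and -0.14 without tumour 4. The 3 epithelium libraries are the baseline of the log2 ratios, so their own values are centred near 0 by construction. All 9 tumours share that baseline. The difference was noticed in the data and has no test.

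The 5S particle genes Rpl5 and Rpl11 differed from each other in pattern. Rpl11 had 284, 431 and 1906 CPM at its lowest, median and highest tumour, and 260, 259 and 261 CPM in epithelium. All 9 tumours exceeded all 3 epithelium libraries, yet the log2 fold change of 1.16 (SE 0.56) missed the threshold in edgeR (adjusted p = 0.154). Rpl11 was called higher by limma-voom (0.73, adjusted p = 0.00874) and not called by DESeq2. Rpl5 had 357, 551 and 2060.5 CPM at its lowest, median and highest tumour, against 653, 689 and 665 CPM in epithelium, with 3 tumours above and 6 below all epithelium libraries (log2 fold change 0.12, edgeR adjusted p = 0.879). Groups did not overlap, with tumours higher, in 3 of the 91 genes, Rpl11, Rpl36 and Rps19bp1, and with tumours lower in Rps12l1 alone. Over all genes tested these shares were 10.2% and 14.1%.

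Of 15 genes whose proteins are known to bind Mdm2, among them Rpl5, Rpl11, Rpl23 and Rps27l, edgeR called 0, with 1 at an unadjusted p under 0.05. Their median log2 fold change was 0.49, or 0.03 without tumour 4, against 0.17 and 0.16 over all genes. DESeq2 called 1 higher and 1 lower and limma-voom 3 higher and 1 lower. Rps7, a small subunit protein of this list, had 180.5, 242 and 1599.5 CPM at its lowest, median and highest tumour, against 477, 428 and 460 CPM in epithelium. Only tumour 4 lay above the epithelium libraries and the other 8 lay below, so the log2 fold change was -0.20 (adjusted p = 0.839) with tumour 4 and -0.89 (adjusted p = 0.0101) without it, both from edgeR. With all 12 libraries Rps7 was called lower by DESeq2 (-0.87, adjusted p = 0.00192) and by limma-voom (-0.84, adjusted p = 0.00727).

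Rpl36, a large subunit gene, had 128, 217 and 1260.1 CPM at its lowest, median and highest tumour, against 124, 127 and 127 CPM in epithelium (log2 fold change 1.37, SE 0.66, edgeR adjusted p = 0.154). Every tumour exceeded every epithelium library, by a narrow margin in tumour 21 and by far in tumour 4. Rpl36 was called higher by DESeq2 (0.70, adjusted p = 0.0239) and by limma-voom (0.83, adjusted p = 0.00738). Rpl37, another of the Mdm2-binding list, had 178, 319 and 1291 CPM at its lowest, median and highest tumour, against 198, 193 and 198 CPM in epithelium, with 8 tumours above and 1 below (log2 fold change 1.14, SE 0.54, edgeR adjusted p = 0.146). Rpl37 was called higher by limma-voom (0.74, adjusted p = 0.0113) and not called by DESeq2. Rpl23 had 413, 660 and 3260.2 CPM at its lowest, median and highest tumour, and 547, 539 and 599 CPM in epithelium. Its log2 fold change was 0.82 with tumour 4 and 0.34 without it (edgeR adjusted p = 0.319 and 0.400), so 1 tumour carried much of the difference.

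The ribosomal stalk, which recruits translation factors, is formed by Rplp0, Rplp1 and Rplp2 next to Rpl12. Its 4 genes had a median log2 fold change of 0.50, or 0.47 without tumour 4, and edgeR called 0, with 0 at an unadjusted p under 0.05, DESeq2 0 and limma-voom 2 higher. Rplp1 was the most abundant canonical gene per length in epithelium, at 1002 CPM per kilobase, against a median of 219. It had 511, 798 and 2559 CPM at its lowest, median and highest tumour, and 496, 484 and 521 CPM in epithelium (log2 fold change 0.95, SE 0.48, edgeR adjusted p = 0.171). In 8 tumours it exceeded all epithelium libraries, and tumour 21 was its lowest tumour. Rplp1 was called higher by limma-voom (0.65, adjusted p = 0.0103) and not called by DESeq2.

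Among the other abundant genes, Rpsa, a small subunit protein also known as the laminin receptor, was the most abundant of the 91 with a mean of 1682 CPM over the 12 libraries. It had 741, 1840.4 and 2803 CPM at its lowest, median and highest tumour, and 1051, 1036 and 1108 CPM in epithelium, with 8 tumours above and 1 below all epithelium libraries (log2 fold change 0.82, SE 0.40, edgeR adjusted p = 0.151). Rpsa was called higher by limma-voom (0.62, adjusted p = 0.0185) and not called by DESeq2. Rpl13a, which is overlapped by small nucleolar RNA and other exons over 35.4% of its length, had 14.2, 44.8 and 115 CPM at its lowest, median and highest tumour, against 18.8, 18.1 and 19.8 CPM in epithelium. Its log2 fold change of 1.53 (SE 0.53) was the largest of the canonical genes and missed the threshold in edgeR (adjusted p = 0.0572). It passed without tumour 21, its only tumour below epithelium (1.66, edgeR adjusted p = 0.0172). With another library left out, the edgeR adjusted p reached 0.176. With all 12 libraries Rpl13a was called higher by DESeq2 (1.55, adjusted p = 0.0180) and by limma-voom (1.23, adjusted p = 0.00199). Rps6, the subunit that S6 kinase phosphorylates, had 368, 572 and 1281 CPM at its lowest, median and highest tumour, against 756, 742 and 776 CPM in epithelium (log2 fold change -0.26, edgeR adjusted p = 0.633), with 7 tumours below and 2 above. Rps6 was called lower by limma-voom (-0.47, adjusted p = 0.0335) and not called by DESeq2.

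Rps24, a small subunit gene mutated in Diamond-Blackfan anaemia, had 460, 720 and 4945 CPM at its lowest, median and highest tumour, against 848, 845 and 904 CPM in epithelium. The highest value was that of tumour 4, with 3 tumours above and 6 below all epithelium libraries, and the log2 fold change was 0.43 with this tumour and -0.30 without it (edgeR adjusted p = 0.686 and 0.449). The 19 genes known from that anaemia had a median of 0.29, or -0.02 without tumour 4, and edgeR called 0, with 0 at an unadjusted p under 0.05, DESeq2 1 lower and limma-voom 1 higher and 2 lower. Rpl28, a large subunit gene whose start carries a pyrimidine run, had 203, 420 and 562 CPM at its lowest, median and highest tumour, against 253, 261 and 258 CPM in epithelium. It exceeded epithelium in 8 tumours and lay below it in 1, with a log2 fold change of 0.70 (SE 0.32, edgeR adjusted p = 0.129). Without tumour 21, the 1 tumour below epithelium, it was 0.79 (edgeR adjusted p = 0.0497). With another library left out, the edgeR adjusted p reached 0.298. With all 12 libraries Rpl28 was called higher by limma-voom (0.63, adjusted p = 0.00516) and not called by DESeq2.

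At the other end of the range, Rpl24 and Rps10 had levels per length far below those of the other subunit genes, at 1.74 and 2.70 CPM per kilobase in epithelium. Exons of another annotated gene overlap 47.0% of the Rpl24 and 20.6% of the Rps10 exonic length. Rpl13a, overlapped over 35.4% of its exonic length, had 8.95 CPM per kilobase in epithelium. Apart from these 3, the canonical genes had at least 49.1 CPM per kilobase in epithelium. The low values of Rpl24, Rps10 and Rpl13a are therefore values of the deposited counts, and the level of these mRNAs is uncertain.

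Once each tumour's own median over the 77 genes was subtracted, a repeated pattern of genes remained. In all, 10 genes lay above that median in all 9 tumours and 5 lay below it in all 9. Above it were Rpl13a (median 1.27 on the log2 scale), Rpl36 (0.80), Rpl11 (0.75), Rpl37 (0.73), Rplp1 (0.71), Rpl7a (0.59), Rpl30 (0.48), Rps26 (0.47), Rpl36a (0.44) and Rpl32 (0.33). Below it were Rps6 (-0.49), Rps16 (-0.47), Rps3a1 (-0.41), Rpl3 (-0.32) and Rps20 (-0.28). Rpl24, Rps7 and Rps27 lay further down, at -0.94, -0.94 and -0.93, in 8 of 9 tumours each. Rpl13a and Rpl24, at the ends of the range, are genes whose level is uncertain. These genes were picked after their values were seen, and the 9 tumours share the same 3 epithelium libraries as their baseline.

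**Figure D3:**
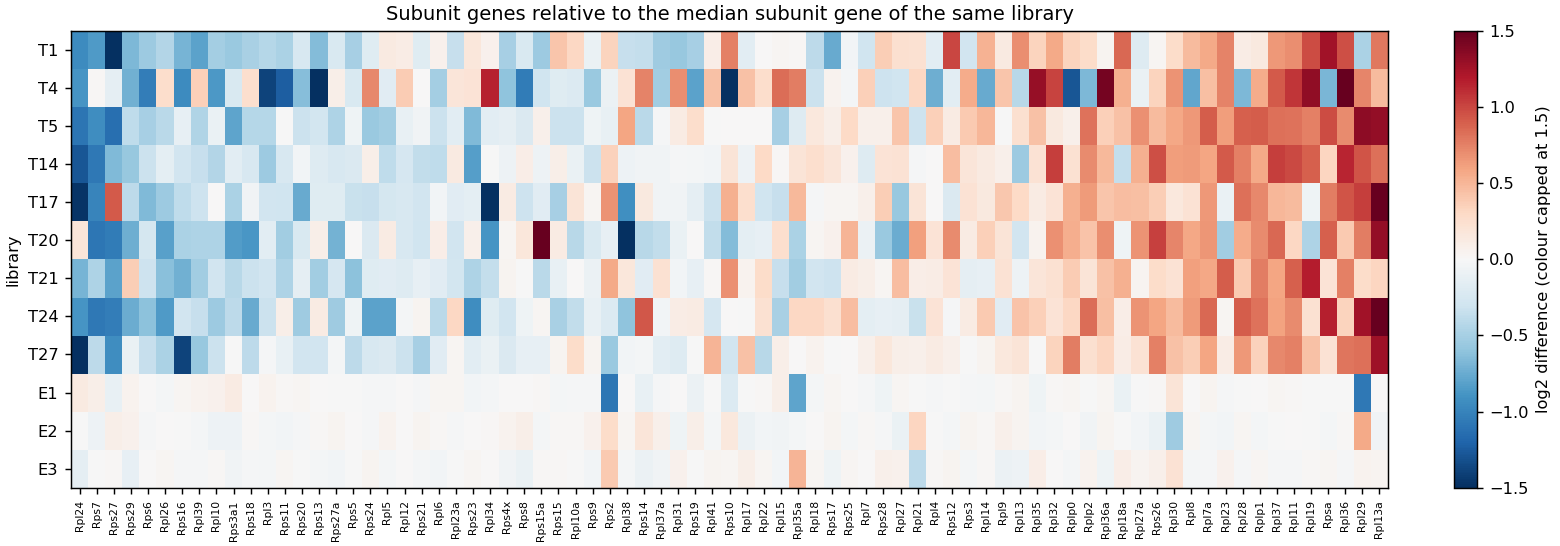
Log2 ratio to the epithelium mean, less the median of the 77 canonical genes in the same library (colour, capped at 1.5), for each gene (horizontal axis, sorted by the median over tumours) and library (tumours above epithelium). Rpl13a at the right and Rpl24 at the left end the range at 1.27 and -0.94, and most epithelium cells are near 0.

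The 2 called genes are not ribosomal subunits. Rps19bp1 (ENSMUSG00000051518.8, chr15:80260615-80264315, minus strand), which encodes a binding partner of Rps19 also known as the SIRT1 regulator AROS, had 9.29, 17.6 and 29.8 CPM at its lowest, median and highest tumour, against 6.44, 5.21 and 7.07 CPM in epithelium. It rose with a log2 fold change of 1.48 (SE 0.37, edgeR adjusted p = 0.0133), and all 9 tumours exceeded all 3 epithelium libraries. Without epithelium library 1, 2 or 3 its adjusted p was 0.0653, 0.0807 or 0.0530, and without tumour 4 it was 0.00879. Rps12l1 (ENSMUSG00000078087.5, chr7:56014016-56014414, plus strand), annotated as a processed pseudogene, had 0.0769, 0.296 and 0.700 CPM at its lowest, median and highest tumour, against 1.00, 1.46 and 0.879 CPM in epithelium. It fell by 1.84 on the log2 scale (SE 0.51, edgeR adjusted p = 0.0226) on 2 to 19 counts per tumour and 26 to 42 per epithelium library, and its adjusted p was 0.0763, 0.130 or 0.0627 without epithelium library 1, 2 or 3. None of its 50-base stretches is unique among transcripts, so its counts are uncertain.

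Paralogs and copies named after a subunit gene were compared as their share of paralog plus parent counts. This covered 6 pairs, with an exact permutation test of the group labels, adjusted over the pairs. The share of Rps27l, a paralog of Rps27 whose human counterpart is a p53 target, was 17.8%, 11.2%, 19.6%, 11.4%, 8.51%, 12.2%, 13.2%, 24.6% and 20.9% in tumours 1, 4, 5, 14, 17, 20, 21, 24 and 27, against 6.09%, 4.10% and 4.79% in epithelium. It averaged 15.5% ± 5.4 in tumours (SD, n = 9) and 4.99% ± 1.01 in epithelium (SD, n = 3), higher in 9 of 9 tumours (two-sided exact permutation p = 0.0136, adjusted p = 0.0273). Rps27l itself had 26.5, 49.2 and 200 CPM at its lowest, median and highest tumour, and 29.8, 22.8 and 26.1 CPM in epithelium, with a log2 fold change of 1.42 (SE 0.56) that missed the threshold in edgeR (adjusted p = 0.0868). Rps27l was called higher by DESeq2 (1.46, adjusted p = 0.0424) and by limma-voom (1.05, adjusted p = 0.00256). Rps27, its parent, had 157, 283 and 1593 CPM at its lowest, median and highest tumour, against 461, 533 and 519 CPM in epithelium (log2 fold change -0.14, edgeR adjusted p = 0.892), with 7 tumours below and 2 above. The share thus combines a paralog at or above its epithelium level in most tumours with a parent below it in most.

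The share of Rpl22l1, the paralog of the large subunit protein Rpl22, went the other way. It was 5.19%, 5.81%, 4.42%, 2.95%, 10.7%, 4.31%, 4.86%, 3.31% and 12.6% in tumours 1, 4, 5, 14, 17, 20, 21, 24 and 27, against 14.7%, 14.7% and 11.6% in epithelium. The means were 6.01% ± 3.34 in tumours (SD, n = 9) and 13.7% ± 1.8 in epithelium (SD, n = 3), and 8 of 9 tumours lay below all epithelium libraries (two-sided exact permutation p = 0.00909, adjusted p = 0.0273). Rpl22l1 itself had 7.92, 11.2 and 54.8 CPM at its lowest, median and highest tumour, and 36.6, 35.5 and 29.1 CPM in epithelium. Tumour 4 alone lay above epithelium, and the log2 fold change was -0.997 (adjusted p = 0.193) with it and -1.47 (adjusted p = 0.00613) without it, both from edgeR. With all 12 libraries Rpl22l1 was called lower by DESeq2 (-1.40, adjusted p = 0.000928) and by limma-voom (-1.45, adjusted p = 0.000302).

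The share of Rpl36al over Rpl36a was 0.258% ± 0.118 in tumours (SD, n = 9) and 0.558% ± 0.130 in epithelium (SD, n = 3), lower in 9 of 9 tumours (exact permutation p = 0.00455, adjusted p = 0.0273). Rpl36al itself reached at most 1.11 CPM, and exons of another annotated gene overlap 24.5% of its exonic length. For Rpl7l1, Rpl39l and Rps4l the shares did not pass (exact permutation p = 0.218, 0.605 and 0.491). Rpl7l1 is no subunit but a factor of ribosome assembly, and Rps4l is annotated as a transcribed processed pseudogene. Rps27rt, a copy of Rps27, had 2.36, 4.17 and 27.7 CPM at its lowest, median and highest tumour, and 16.1, 17.2 and 15.9 CPM in epithelium, with a log2 fold change of -1.21 (edgeR adjusted p = 0.202), or -1.84 (adjusted p = 0.00802) without tumour 4. With all 12 libraries Rps27rt was called lower by DESeq2 (-1.75, adjusted p = 0.00128) and by limma-voom (-1.81, adjusted p = 0.000189). Only 8.92% of its 50-base stretches are unique, so reads of Rps27 and Rps27rt cannot be told apart with certainty. Over the canonical genes the unique share ran from 13.3% to 100% with a median of 56.1%, and for 28 of 77 it was under 50%.

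**Figure D4:**
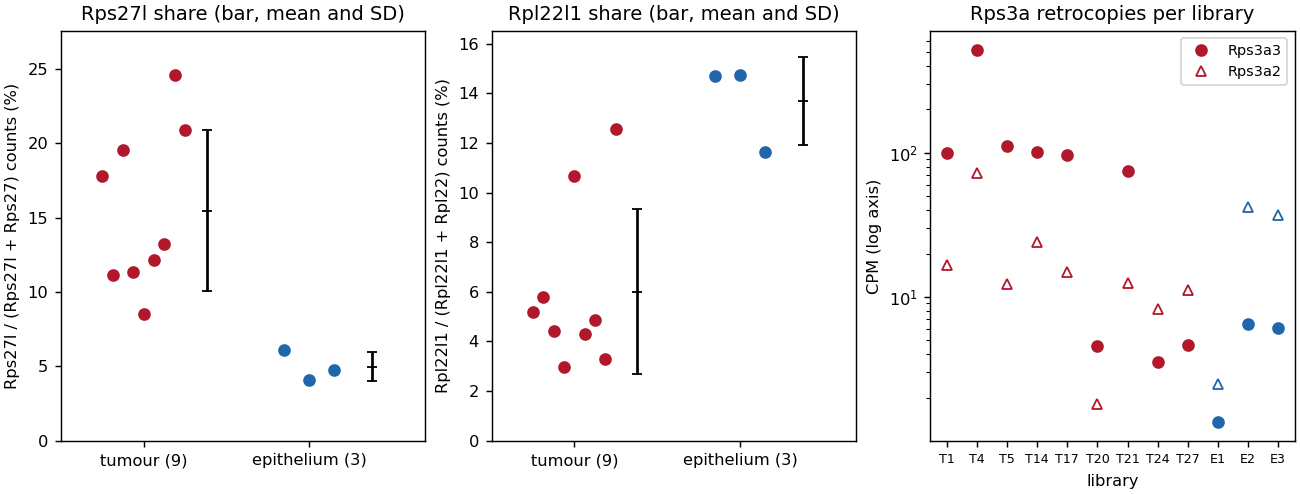
Left and middle, share (%) of Rps27l in Rps27l plus Rps27 counts and of Rpl22l1 in Rpl22l1 plus Rpl22 counts per library (points; black bars, mean and SD), with means of 15.5% and 6.01% in tumours and 4.99% and 13.7% in epithelium. Right, CPM (log axis) of the retrocopies Rps3a3 and Rps3a2 in each tumour (T) and epithelium (E) library, where Rps3a3 is above 70 CPM in 6 tumours and below 10 CPM in the other 3.

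The retrocopies of Rps3a1, a small subunit gene, split the tumours. Rps3a3 (chr13:108670603-108671397, plus strand) had 99.5, 519, 112, 101, 96.5, 4.57, 74.5, 3.54 and 4.65 CPM in tumours 1, 4, 5, 14, 17, 20, 21, 24 and 27, against 1.35, 6.47 and 6.09 CPM in epithelium. Tumours 20, 24 and 27 lay within the epithelium range and the other 6 far above it, and the log2 fold change of 4.60 (SE 1.60) missed the threshold in edgeR (adjusted p = 0.0584; DESeq2 0.000404; limma-voom 0.00719). Rps3a2 had 1.81, 12.5 and 72.2 CPM at its lowest, median and highest tumour, and 2.49, 41.9 and 37.2 CPM in epithelium, so epithelium library 1 differed from the other epithelium libraries. The same held for Rps2, at 180, 460 and 513 CPM in epithelium libraries 1, 2 and 3, while the pseudogene Rps2-ps10 had 43.7, 2.19 and 1.76 CPM there. Rps2, Rpl21, Rpl29, Rpl30 and Rpl35a were the 5 canonical genes that varied by more than 20% between epithelium libraries, and the counts of these copies and their parents are uncertain where they share sequence.

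Leaving out tumour 4, 8 of the 91 genes stood out as high in 1 of the other 8 tumours, and their neighbours on the chromosome were mostly high with them for some and not for others. These genes were picked by Dixon's ratio over 8 tumours after the data were seen. Chance passes its critical value in about 1 of 20 groups of normally distributed values. The ratio was taken on CPM without a log, so that rate need not hold. The share over all genes is not given here, so their number is no result about ribosomal protein genes. Rps15a, a small subunit gene on chromosome 7, had 1321 CPM in tumour 20, against 140 to 363 CPM in the 7 remaining tumours, a 4.76-fold difference from their median of 278. Of 13 other genes within 1 Mb that reached 5 CPM, 11 were also higher in tumour 20 than the median of the same 7 tumours, with a median log2 difference of 1.45. Rps27, on chromosome 3, had 750 CPM in tumour 17, against 157 to 346 CPM, and 46 of its 51 neighbours were higher there, with a median of 1.15. Rpl24, on chromosome 16, had 2.87 CPM in tumour 20, against 0.508 to 1.11 CPM, and 10 of 11 neighbours were higher, with a median of 1.48. Over all genes the medians were -0.07 in tumour 20 and 0.02 in tumour 17. Rps14 in tumour 24 (748 CPM, against 182 to 359 CPM) had 13 of 25 neighbours higher and a median of 0.17. In tumour 20 this was 4 of 10 neighbours and -0.20 for Rpl21, and 12 of 22 and 0.17 for Rpl9. In tumour 21 it was 3 of 10 and -0.17 for Rpl39l, and 8 of 11 and 0.54 for Rps4l, where the median over all genes was -0.10. Copy number was not measured.

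**Figure D5:**
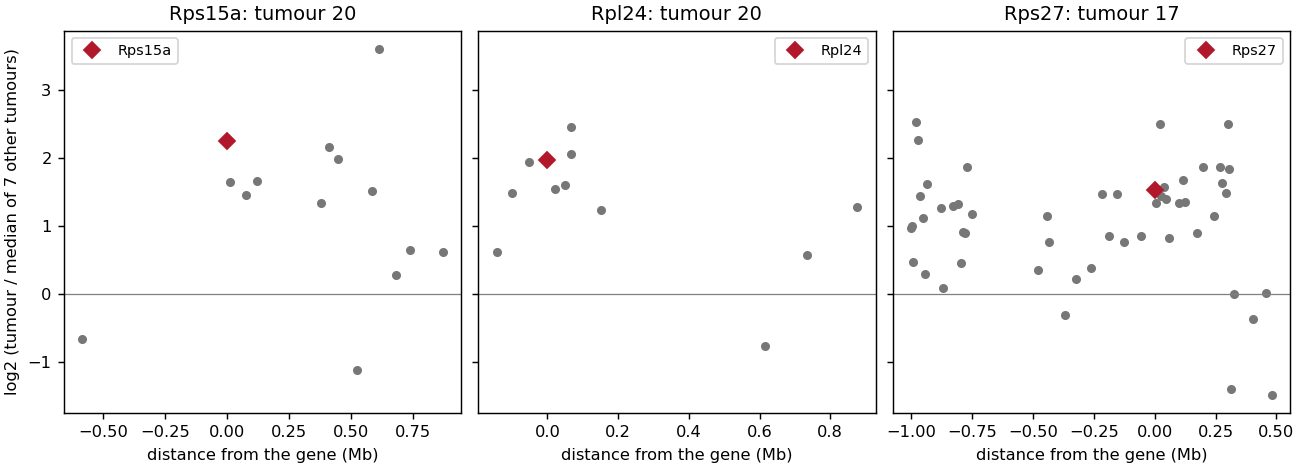
Log2 ratio of the named tumour to the median of the 7 other tumours, tumour 4 left out, for genes within 1 Mb of Rps15a and Rpl24 in tumour 20 and of Rps27 in tumour 17 (grey points; red diamonds, the ribosomal protein gene), against distance between gene midpoints in Mb. Most neighbours lie above 0, with medians of 1.45, 1.48 and 1.15.

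Other genes of the translation machinery were examined as lists, with no set test. Of 77 mitochondrial ribosomal protein genes, which encode proteins of a separate ribosome, 15 were higher and 0 lower in edgeR (19.5% higher, against 8.89% of all genes higher), with a median log2 fold change of 0.98. Without tumour 4 edgeR called 28 higher and 0 lower, against 11.6% of all genes higher and 12.5% lower, with a median of 0.77. DESeq2 called 33 and limma-voom 52 of them higher, and neither called 1 lower. For these genes and the lists that follow, the shares of all genes called by DESeq2 and limma-voom are not given here. Among the mitochondrial genes Mrps5 rose to 58.4 ± 13.3 CPM in tumours (SD, n = 9), against 22.4 ± 0.9 CPM in epithelium (SD, n = 3), a log2 fold change of 1.38 (SE 0.26, edgeR adjusted p = 0.00274). Mrpl44 (1.24, adjusted p = 0.00436) and Mrpl34 (1.88, adjusted p = 0.00487) rose as well. Of 30 ribosome biogenesis genes 3 were higher (10%, against 8.89% of all genes) and 0 lower in edgeR, with a median of 0.71, and 6 were higher without tumour 4, 7 in DESeq2 and 18 in limma-voom. The 3 were Ncl, the gene of nucleolin (1.47, edgeR adjusted p = 0.0133), Pes1 (0.83, adjusted p = 0.0302) and Nhp2 (1.41, adjusted p = 0.0313), and each lost its call when at least 1 library was left out.

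Of 25 initiation factor genes 3 were higher (12%, against 8.89% of all genes) and 0 lower in edgeR, with a median of 0.50. Without tumour 4 edgeR called 7 higher and 2 lower, and with it DESeq2 called 7 higher and 0 lower and limma-voom 13 higher and 2 lower. The 3 were Eif3g (1.03, edgeR adjusted p = 0.0142), Eif5b (1.08, adjusted p = 0.0195) and Eif6, which keeps the subunits apart (1.28, adjusted p = 0.0250). Of 15 other genes with TOP mRNAs 1 was higher, Eef1d, an exchange factor subunit of elongation (0.88, edgeR adjusted p = 0.0490), and the median was 0.25; without tumour 4 there were 2 higher, and DESeq2 called 3 higher and limma-voom 4 higher and 2 lower. Eef1a1, the elongation factor with the most abundant mRNA of that list, averaged 5695 ± 1726 CPM in tumours (SD, n = 9) and 6099 ± 107 CPM in epithelium (SD, n = 3). Of 13 genes of translation control 1 was higher, Eif4ebp1, the repressor that mTOR phosphorylates (2.24, edgeR adjusted p = 0.0208), with 1 higher also without tumour 4, 2 higher in DESeq2 and 2 higher and 2 lower in limma-voom. The calls of Eif3g, Eif5b, Eif6, Eef1d and Eif4ebp1 were each lost when at least 1 library was left out (adjusted p up to 0.0768, 0.103, 0.112, 0.164 and 0.0957). The ribosomal genes Fau (0.10) and Rack1 (0.04) were not called by edgeR, DESeq2 or limma-voom, and neither had an unadjusted p under 0.05 in edgeR.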

How the data were processed

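The authors deposited raw whole-number counts per gene for 12 libraries of total RNA, made with a stranded kit per the labels. Per the submitters' processing notes the tools were FastQC 0.11.8, TopHat2 2.1.1 and HTSeq 0.11.0 and the build was GRCm38. Annotation release, strand setting and the unit counted (reads or pairs) are not stated in the sources used here. The 5 summary lines per library stayed out of library sizes. Counts were fitted in R 4.3.3 with edgeR 4.0.16 (filterByExpr, TMM, robust quasi-likelihood test) on the group alone, adjusted by Benjamini-Hochberg over all genes tested and called under 0.05; SE was derived from the fold change and the F statistic. The procedure was tested on simulated data, where it recovered few genes with small or moderate changes and missed part of those with large changes. A gene that was not called may therefore still differ. The simulation gave each gene the same spread in both groups, whereas in the data the tumours varied more than the epithelium. DESeq2 1.42.0 and limma 3.58.1 (voom) were alternatives, with 3 other scalings, 2 filters, scaling without abundant genes or the members, pseudogene counts added to the parent, and each library left out. Python 3.11.15 with scipy 1.17.1 gave the exact permutation tests. GENCODE M21 supplied gene types, lengths and unique 50-base stretches. Genes of like abundance lay between the 10th and 90th percentile of the canonical genes in mean log2 CPM. Named genes were those called, the most abundant in CPM and per kilobase, members of the stalk, 5S, Mdm2 and paralog lists, genes of other names, up to 6 in which 1 tumour stood apart, and up to 3 called genes of each outside list; other genes were chosen after their values were seen. The members and lists were chosen with earlier results of these data known. Without molecular identifiers, reads need not be independent molecules, so the limit of 3 counts covers counting error only.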

Additional observations from a re-analysis of the deposited data

Results flagged for a closer look

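Dixon's ratio of the gap to the whole range passed its 95% critical value over 9 tumours in 65 of the 91 genes. In 64 of them tumour 4 was the high library, so these genes are not separate events. Chance passes that value in about 1 of 20 groups of normally distributed values. For single genes the ratio was taken on CPM without a log, so that rate need not hold. The share over all genes is not given here. The median shift of the canonical genes also stood apart in tumour 4 (ratio 0.512). Among the genes named by rule, the ratio for tumour 4 was 0.834 in Rpl11, 0.831 in Rpl12, 0.826 in Rpl17, 0.688 in Rpl22l1, 0.744 in Rpl23, 0.730 in Rpl23a, 0.848 in Rpl26, 0.751 in Rpl32, 0.706 in Rpl37 and 0.603 in Rpl5. It was 0.818 in Rpl7, 0.653 in Rpl7a, 0.577 in Rpl7l1, 0.684 in Rplp1, 0.683 in Rps14, 0.608 in Rps15, 0.579 in Rps20, 0.868 in Rps24, 0.504 in Rps25 and 0.587 in Rps27. It was 0.854 in Rps27a, 0.619 in Rps27l, 0.721 in Rps27rt, 0.783 in Rps3, 0.791 in Rps3a1 and 0.888 in Rps7. In the same library Rn7sk took 22.6% of gene counts and 52.0% of alignments were not unique, and the part of these in the high levels was not tested. Tumour 21 stood apart in Rps4l (ratio 0.863), with 7.21 CPM against 0.560 to 1.47 CPM in the other tumours, in the Rps4l share (0.906) and in the Rpl39l share (0.749). Without tumour 21 the log2 fold change of Rps4l was -1.95 (edgeR adjusted p = 0.00418), against -1.23 (adjusted p = 0.209) with it. With all 12 libraries limma-voom called Rps4l lower (-1.83, adjusted p = 0.00480), and DESeq2 did not call it.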

How the results depend on the processing

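The number of the 91 genes called was small in edgeR and larger in other tools. By edgeR 1 was higher and 1 lower. DESeq2 called 5 higher and 4 lower, and limma-voom with quality weights 15 higher and 11 lower, without the share of all genes beside them. With library totals only, 3 were lower, with at least 10 counts in 9 libraries 0 were lower, and among the canonical subunits alone 0 were higher and 0 lower. Leaving out 1 library gave 0 to 3 higher and 0 to 4 lower, with 0 of each without any 1 epithelium library, 2 higher without tumour 4, 20, 24 or 27, 3 without tumour 21, 4 lower without tumour 4 and 2 without tumour 21. The median log2 fold change of 0.35 lay between -0.06 and 0.45 with 1 library left out and was -0.54 after subtracting the median of genes of like abundance and length. It was -0.11 with library totals and -0.03 in limma-voom. The log2 ratio of mean shares, -0.01, was 0.42 with TMM-scaled CPM and 0.18 without mitochondrial and small RNA genes. For single genes named by rule, 422 of the values with a library left out kept their side of the threshold, 4 newly passed it and 6 lost it, and in other settings 339 kept it and 19 newly passed it. The sign changed in at least 1 of these settings for 12 of the 36 genes, and without tumour 4 for 8. The causes were not tested. No paired analysis was possible because the 2 groups share only the replicate number 1. Depth limits the retrocopies and low paralogs: 3 counts are 0.089 to 0.152 CPM before TMM scaling. The levels above are scaled, so this range does not apply to them directly. In tumour 4, Rps12l1 with 4 counts stood at 0.365 scaled CPM.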

Other observations

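Processed pseudogenes named after ribosomal protein genes, which lie outside the comparison above, together held 0.0181% to 0.0407% of gene counts in tumours and 0.0226% to 0.0294% in epithelium. Some of them behaved unlike their parents. Rpl15-ps2 had 0.109, 9.60 and 87.1 CPM at its lowest, median and highest tumour, against 0.0338 to 0.139 CPM in epithelium (edgeR adjusted p = 0.0197). Rpl3-ps1 had 50.3, 68.1 and 79.6 CPM at its lowest, median and highest tumour and 12.5, 58.8 and 9.67 CPM in epithelium libraries 1, 2 and 3. These genes were chosen after their values were seen, and reads of near-identical copies may be assigned to either.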
